A study of Mus musculus with 23 samples.

Results

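The adrenergic receptors are the G protein-coupled receptors for noradrenaline and adrenaline, and 7 of their genes were followed here across 23 bulk RNA-seq libraries of mouse orbitofrontal cortex. The members were taken by symbol from the deposited table of normalized counts and are the α1 receptors Adra1a, Adra1b and Adra1d, the α2 receptors Adra2a, Adra2b and Adra2c, and the β1 receptor Adrb1. They are 7 of the 27178 genes in the table. Genes were tested where at least 5 libraries held a normalized count of 10 or above, which left 16385 genes and all 7 members. Of these members 6 reached that count in every library. Adra2b reached it in 14 of 23 libraries.

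The mice were wild-type males of the C57BL/6J strain, with an age of 8 weeks in the labels. On day 0 they received an AAV6 virus into the orbitofrontal cortex (OFC), a frontal cortical area, that carried either ZBTB7A, a zinc-finger transcription factor, or green fluorescent protein (GFP) under a promoter of Gfap, which is active mainly in astrocytes. On day 21 some mice went through a subthreshold social defeat, a short encounter with an aggressor, and the others were controls. All were then tested for behaviour between day 22 and day 27, and infected OFC tissue was taken on day 28, so every group had received a virus and the tests. The groups were GFP control (n = 5, libraries 1, 2, 10, 11 and 19), GFP stress (n = 8, libraries 3, 4, 5, 12, 13, 20, 21 and 22), ZBTB7A control (n = 5, libraries 6, 14, 15, 23 and 24) and ZBTB7A stress (n = 5, libraries 7, 9, 17, 25 and 26), numbered as in their titles. Values of a group are listed below in this order. Groups follow the stress condition and virus labels, since the general treatment label names social defeat on day 21 for every sample, the controls included. The ZBTB7A virus is labelled as carrying GFP too. The labels do not say that each library came from its own mouse, so p-values measure the spread between these samples.

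Noradrenaline reaches the cortex through axons of the locus coeruleus, whose cell bodies lie in the brainstem. The α1 receptors couple to Gq and raise intracellular calcium through phospholipase C, the β1 receptor couples to Gs and raises cyclic AMP, and the α2 receptors couple to Gi, lower cyclic AMP and open GIRK potassium channels. In the cortex α2 receptors also sit on noradrenergic terminals, where they limit transmitter release, and noradrenaline acts on astrocytes as well as neurons. A bulk library cannot tell fewer cells of a type from less RNA per cell.

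The promoters of 4 members are printed because the results below turn on these genes: Adra1b and Adrb1 varied together across libraries, Adra2b varied against both, and Adra2c followed the striatal content of the libraries. The RefSeq promoter table (GRCm38.p6) matched 5 of the 7 members at 6 start sites, not Adra1a and Adra1d. Each stretch holds the 250 bases before a transcription start site, read 5′ to 3′ on the gene's strand, and capitals mark any of 4 motifs that were searched on both strands, with no overlap between matches: a GC box, the core of a cyclic AMP response element, a TATA box and an E box. Adra1b has 2 start sites on the minus strand, at chr11:43901238-43901487 and chr11:43836490-43836739, and the other 3 genes have 1 each on the plus strand, at chr19:56721867-56722116 for Adrb1, chr2:127362929-127363178 for Adra2b and chr5:35278316-35278565 for Adra2c.
Adra1b, first start site: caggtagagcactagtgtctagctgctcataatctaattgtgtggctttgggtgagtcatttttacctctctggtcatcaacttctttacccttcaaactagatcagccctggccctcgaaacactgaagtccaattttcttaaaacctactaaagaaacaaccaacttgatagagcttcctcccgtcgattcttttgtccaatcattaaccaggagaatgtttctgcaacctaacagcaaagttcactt
Adra1b, second start site: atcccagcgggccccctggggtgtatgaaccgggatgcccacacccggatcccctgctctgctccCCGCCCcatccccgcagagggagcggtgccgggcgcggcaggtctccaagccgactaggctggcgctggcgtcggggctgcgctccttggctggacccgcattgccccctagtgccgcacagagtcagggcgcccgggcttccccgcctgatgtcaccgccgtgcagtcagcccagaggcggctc
Adrb1: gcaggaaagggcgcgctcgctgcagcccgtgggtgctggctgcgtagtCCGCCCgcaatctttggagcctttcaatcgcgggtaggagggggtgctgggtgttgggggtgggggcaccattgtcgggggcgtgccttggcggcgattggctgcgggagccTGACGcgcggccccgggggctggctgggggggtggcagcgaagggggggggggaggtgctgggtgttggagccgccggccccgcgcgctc
Adra2b: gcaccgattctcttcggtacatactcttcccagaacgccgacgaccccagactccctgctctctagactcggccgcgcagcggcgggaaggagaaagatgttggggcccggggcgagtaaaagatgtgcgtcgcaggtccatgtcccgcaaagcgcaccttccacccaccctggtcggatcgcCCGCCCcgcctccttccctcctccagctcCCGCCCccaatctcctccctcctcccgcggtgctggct
Adra2c: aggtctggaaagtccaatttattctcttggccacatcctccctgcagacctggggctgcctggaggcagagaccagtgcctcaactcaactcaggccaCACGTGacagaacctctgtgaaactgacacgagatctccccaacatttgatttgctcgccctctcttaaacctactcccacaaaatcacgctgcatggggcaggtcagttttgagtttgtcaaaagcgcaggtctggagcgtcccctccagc

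Of the motifs searched, the GC box was the only one found in more than 1 of the printed stretches. The GC content was 41.6% at the first start site of Adra1b and 72.8% at the second, 74% for Adrb1, 66% for Adra2b and 53.6% for Adra2c, against a median of 52.4% over 32851 promoters of the same length. Adra2b held 2 GC boxes, and Adrb1 and the second start site of Adra1b held 1 each, a motif spelled GGGCGG that is present in 32.7% of all promoters. Adrb1 alone of the 5 printed stretches held the response element core, spelled TGACG and found in 17.8% of all promoters. Adra2c alone held an E box, which is spelled CACGTG and was found in 6.02% of them. The first start site of Adra1b held none of the 4 motifs. The promoter of Adra2a, not printed, held 1 of each, including the TATA box, spelled TATAAA, that 12.4% of all promoters have. A match of letters is a description of the sequence and was not tested as a binding site.

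Depth came to between 12.5 and 51.9 M recovered reads per library. Zbtb7a, the mouse gene of the factor in the vector, had mean normalized counts (± SD) of 3834 ± 629 with GFP and no stress (n = 5), 3934 ± 251 with GFP and stress (n = 8), 3716 ± 247 with ZBTB7A and no stress (n = 5) and 3744 ± 173 with ZBTB7A and stress (n = 5), so the libraries labelled ZBTB7A did not hold more reads on it. Whether the vector's own transcript was counted there is not given in the sources used here, and every direction below rests on the labels. Gfap, whose promoter drives the vector, was 0.86 ± 0.41 (SE) higher on the log2 scale in ZBTB7A stress than in GFP stress (limma unadjusted p = 0.0493, adjusted p = 0.309). Markers of striatal medium spiny neurons, a cell type of the striatum beneath the OFC, were abundant and uneven. Their summed normalized count was 25369.5 to 69569.6 across GFP control libraries, 6829 to 54619 across GFP stress, 14781 to 145033 across ZBTB7A control and 35587 to 95049.7 across ZBTB7A stress, with all 10 markers above 0 in every library. On the mean centred log2 level of this list, GFP stress 5, 12, 20 and 21 were lowest (-2.79 to -2.14) and ZBTB7A control 6 was highest (2.101). Some of the results below are also given without these 5 libraries, and those given only over all libraries may depend on them.

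Per kilobase of exon, Adra1d was the most abundant receptor transcript and Adra2b the least. Normalized counts were divided by the union exon length of each gene in GENCODE M21 for this one comparison between genes, and the values are levels as mean ± SD over all 23 libraries. These lengths may not match the exons that the authors counted, and the order rests on them. The length was 1899 bases for Adra1d and 3382 for Adrb1. By mean normalized count Adrb1 was the higher of the pair, at 873 against 862. Adra1d stood at 454 ± 174 per kb and Adrb1 at 258 ± 56.7 per kb. Adra1b at 212 ± 65.2 and Adra2c at 209 ± 71.1 per kb followed. Adra2a had 104 ± 22.2, Adra1a 38.0 ± 3.68 and Adra2b 4.47 ± 3.84 per kb. Within single libraries Adra1d was above Adrb1 in 22 of 23 and Adrb1 above Adra1b in 18 of 23, while Adra1b was above Adra2c in only 13 of 23, so the last pair did not differ beyond its spread. Adra2c was above Adra2a, Adra2a above Adra1a and Adra1a above Adra2b in 23 of 23 libraries. An exon of Adra1d overlaps Gm14285 on the opposite strand, and the library kit does not mark strand, so reads of the 2 genes cannot be told apart and the level of Adra1d may hold both.

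**Figure D1:**
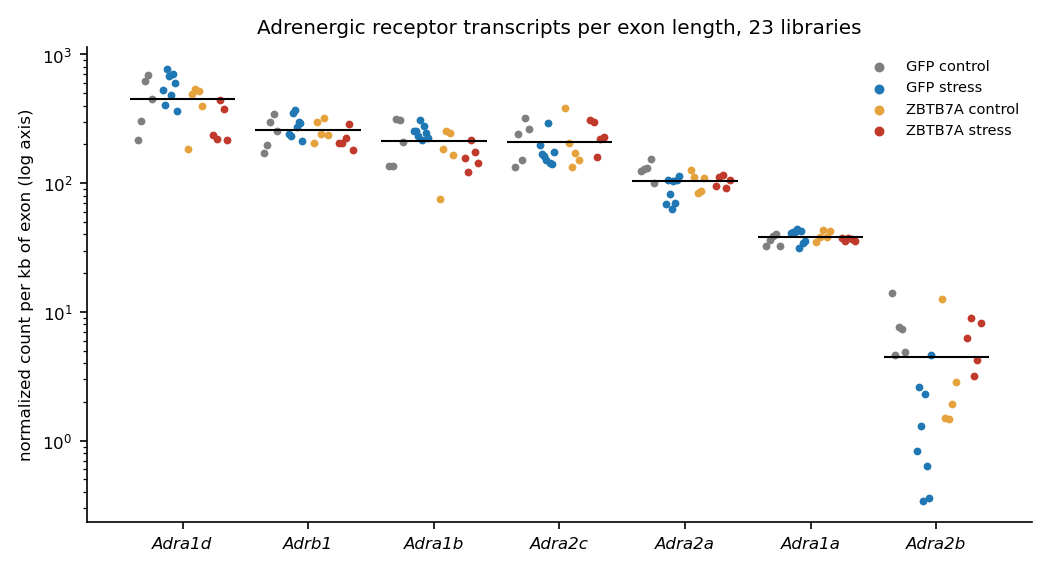
Normalized count per kb of exon (log axis) of the 7 receptor genes, ordered by mean; each point is 1 of 23 libraries coloured by group and the bar is the mean over all libraries. Adra1d is at the top at a mean of 454 per kb and Adra2b at the bottom at 4.47 per kb. For Adra2b, GFP stress (blue) has the lowest group mean, and some of its libraries lie above libraries of the ZBTB7A groups.

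Summed per kb over their genes, the α1 receptors made up 53.7% ± 9.64 of the receptor transcripts, the α2 receptors 26.1% ± 9.75 and Adrb1 20.2% ± 1.66 (SD, n = 23). The α1 share ranged from 29.0% in ZBTB7A control 6 to 66.6% in GFP stress 20. By group GFP control stood at 52.5% ± 6.90, GFP stress at 60.5% ± 4.89, ZBTB7A control at 51.9% ± 13.5 and ZBTB7A stress at 45.8% ± 7.97. The α2 share went the other way, at 28.2% ± 6.63, 19.6% ± 5.70, 26.9% ± 13.8 and 33.7% ± 8.24 in the same order. The Adrb1 share stayed between 17.97% and 24.04% in all 23 libraries. Since the shares add up to the whole in each library, the α2 share is not a result apart from the α1 share. All shares rest on the exon lengths above.

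Adra1a, an α1 receptor that couples to Gq, was the steadiest member, with normalized counts from 272 to 383 and a highest library 1.41-fold above the lowest. The GFP control mean was 316 ± 33.0 (SD, n = 5) and the GFP stress mean 341 ± 40.0 (n = 8). For ZBTB7A control it was 344 ± 29.1 (n = 5) and for ZBTB7A stress 319 ± 7.79 (n = 5), and the groups overlapped. No contrast reached an unadjusted p of 0.05 in limma, and the largest difference was the interaction, at -0.21 ± 0.12 (SE) on the log2 scale.

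Adra1b, the α1 receptor best known from cortical and thalamic neurons, was lowest in ZBTB7A stress by its mean. Its normalized counts were 463, 457, 1066, 1046 and 711 in GFP control and ranged from 738 to 1052, with a median of 849.8, in GFP stress. They were 255, 624.5, 859, 825 and 556 in ZBTB7A control and 531, 412, 735, 594 and 482 in ZBTB7A stress. Every ZBTB7A stress library lay below every GFP stress library (highest 735 against lowest 738), whereas the 2 control groups overlapped. Groups that did not overlap in this contrast were found for 1% of the 16385 genes tested. The virus effect with stress, ZBTB7A stress against GFP stress, was a log2 fold change of -0.65 ± 0.25 (SE; limma unadjusted p = 0.0145, Benjamini-Hochberg adjusted p = 0.237; exact two-sided permutation p = 0.00155), which did not pass the adjusted threshold of 0.05. The 3 runs of library numbers go from 1 to 9, from 10 to 17 and from 19 to 26. ZBTB7A control has only library 6 in run 1, ZBTB7A stress only 17 in run 2 and GFP control only 19 in run 3. Each contrast of 2 groups thus has a run value that rests on 1 library of a group. The difference was -0.85, -0.26 and -0.65 within the 3 runs, and -0.57 without the 5 libraries far in striatal level. With the striatal level as a covariate it was -0.22.

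Adra1d, the third α1 receptor and the most abundant member per kb, was also lowest in ZBTB7A stress by its mean. Its normalized counts were 413, 582, 1174, 1305 and 862 in GFP control and ranged from 696 to 1475, with a median of 1073, in GFP stress. They were 353, 929, 1029, 989 and 749.6 in ZBTB7A control and 453, 415, 835, 715 and 409 in ZBTB7A stress. ZBTB7A stress 7, 9 and 26 lay between 409 and 453, below all GFP stress libraries, and the remaining ones, 17 and 25, lay within the GFP stress range. The virus effect with stress was -0.95 ± 0.29 on the log2 scale, a level 0.517 times that of GFP stress (95% interval 0.341 to 0.783; limma unadjusted p = 0.00334, adjusted p = 0.183; exact permutation p = 0.00777). It was -1.27, -0.39 and -0.91 within the 3 runs, -0.63 without the 5 far libraries and -0.35 with the striatal level as a covariate. Of the other contrasts of Adra1d in limma the interaction came nearest to the threshold, at -0.88 ± 0.43 (unadjusted p = 0.0530, adjusted p = 0.670).

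Adrb1, the β1 receptor that raises cyclic AMP through Gs, ranged from 577 to 1249 normalized counts. It had 577, 668, 1007, 1164 and 868 in GFP control and ranged from 714 to 1249, with a median of 957, in GFP stress. It had 692, 1011, 820.4, 1092 and 797 in ZBTB7A control and 690.2, 689, 765, 972 and 608 in ZBTB7A stress. The 4 groups overlapped, and 4 of 5 ZBTB7A stress libraries lay below the GFP stress median. The virus effect with stress was -0.36 ± 0.17 (limma unadjusted p = 0.0421, adjusted p = 0.299; exact permutation p = 0.0404), with -0.40, -0.49 and -0.22 within the runs. It was -0.13 without the 5 far libraries and -0.08 with the striatal level as a covariate.

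Adra2a, the α2 receptor that serves widely as an autoreceptor and is abundant in prefrontal neurons, was highest in GFP control. Its normalized counts were 604, 625.4, 633, 750.0 and 484 in GFP control and ranged from 304 to 549, with a median of 450.2, in GFP stress. They were 617, 540.3, 406, 420.5 and 529 in ZBTB7A control and 457, 537, 561, 445 and 509.7 in ZBTB7A stress. All 8 GFP stress libraries lay below the GFP control median, although GFP control 19 fell inside the GFP stress range. The stress effect with GFP, GFP stress against GFP control, was -0.54 ± 0.14 on the log2 scale, a level 0.688 times that of the control (95% interval 0.560 to 0.846; limma unadjusted p = 0.00109, adjusted p = 0.320; exact permutation p = 0.00777). It was -0.59, -0.82 and -0.08 within the runs, -0.39 without the 5 far libraries and -0.37 with the striatal level as a covariate. The same contrast under ZBTB7A was 0.01 ± 0.16, and the interaction between virus and stress was 0.55 ± 0.21 (unadjusted p = 0.0177, adjusted p = 0.668).

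Adra2b, an α2 receptor of low abundance in cortex, showed the widest spread of the 7, with a highest library 41.3-fold above the lowest, and rests on 1 to 90 recovered reads per library. Its normalized counts were 56.7, 18.6, 30.6, 29.4 and 19.8 in GFP control and ranged from 1.37 to 18.5, with a median of 4.28, in GFP stress. They were 50.7, 6.02, 5.96, 7.79 and 11.5 in ZBTB7A control and 25.1, 36.3, 12.9, 16.9 and 32.8 in ZBTB7A stress. The GFP control and GFP stress groups did not overlap, by a margin of 18.6 in GFP control 2 against 18.5 in GFP stress 22, which 0.372% of the genes tested also showed. Adra2b reached 10 in 5 of 5 libraries of GFP control and of ZBTB7A stress, in 2 of 8 of GFP stress and in 2 of 5 of ZBTB7A control, so it was tested through the groups in which it was high. ZBTB7A control 6 stood apart at 50.7 while the other 4 libraries of that group lay between 5.96 and 11.5.

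The stress effect with GFP on Adra2b was -2.35 ± 0.52 on the scale of log2(normalized count + 1) (limma unadjusted p = 1.55e-04, adjusted p = 0.320; exact permutation p = 0.00155). Mean counts were 31.0 ± 15.4 (SD, n = 5) and 6.52 ± 5.94 (n = 8). The difference passed the adjusted threshold in DESeq2 on recovered reads (adjusted p = 0.0329) and not in edgeR (adjusted p = 0.214). It was -2.31, -2.66 and -1.91 within the runs and -1.56 without the 5 far libraries. It was -1.43 with the striatal level as a covariate and -0.91 with the choroid plexus level, which was chosen after the data were seen.

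The virus effect with stress on Adra2b was 2.06 ± 0.52 (limma unadjusted p = 6.27e-04, adjusted p = 0.183; exact permutation p = 0.00466), higher than the GFP stress median in 5 of 5 ZBTB7A stress libraries, with overlap. It was 2.20, 1.496 and 2.16 within the runs, 1.27 without the 5 far libraries and 0.86 with the striatal level as a covariate. The virus effect without stress was -1.27 ± 0.57 (unadjusted p = 0.0379, adjusted p = 1.00; exact permutation p = 0.0794), with 0.62, -2.15 and -0.98 within the runs. Without the 5 far libraries it was -1.79. It was -1.03 with the striatal level as a covariate and -0.24 with the choroid plexus level. The stress effect with ZBTB7A was 0.97 ± 0.57 (unadjusted p = 0.104). Of the 5 contrasts, the interaction was the largest at 3.33 ± 0.77 (unadjusted p = 2.81e-04, adjusted p = 0.668), and without ZBTB7A control 6 it was 3.84 with an adjusted p of 0.0342. In that fit 82 genes passed the adjusted threshold in the interaction. No other single library, when left out, brought Adra2b past it. With the striatal level as a covariate the interaction was smaller, as given below.

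Adra2c, the third α2 receptor and one that is strongly expressed in the striatum, ranged from 459 to 1315 normalized counts. It had 459.7, 832, 524, 1098 and 916 in GFP control and ranged from 483 to 1009, with a median of 570.2, in GFP stress. It had 1315, 703, 459, 595 and 525.9 in ZBTB7A control and 1069, 1027, 546, 766 and 789 in ZBTB7A stress. The highest value came from ZBTB7A control 6, and the groups overlapped. The nearest contrast to the threshold was the virus effect with stress at 0.45 ± 0.25 (limma unadjusted p = 0.0830; exact permutation p = 0.0591), which was -0.15 with the striatal level as a covariate.

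**Figure D2:**
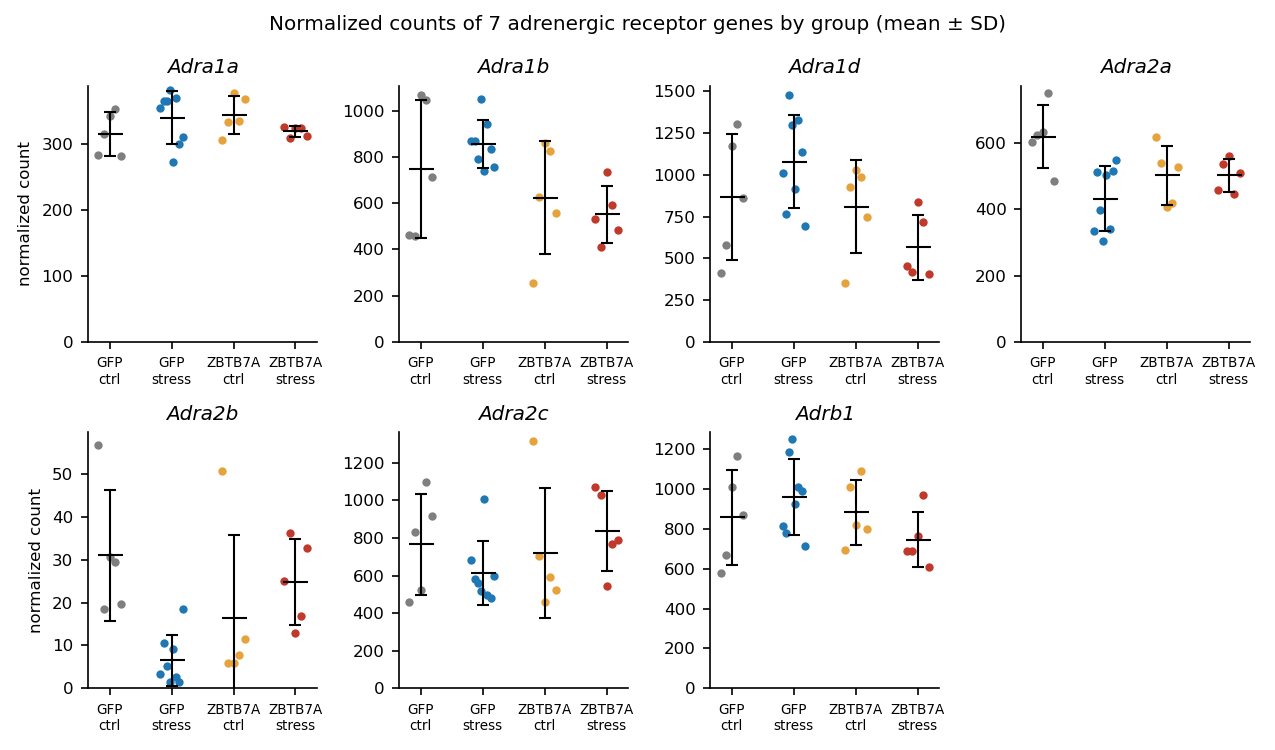
Normalized count of each receptor gene in each library (points), by group, with the mean and SD (bars); every vertical axis starts at 0. By group mean, Adra1b, Adra1d and Adrb1 are lowest in ZBTB7A stress, Adra2b is lowest in GFP stress at a mean of 6.52, and Adra1a is level across groups.

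Counted over the 7 members, no difference passed the adjusted threshold in limma. In the virus effect without stress 1 of 7 members had an unadjusted p under 0.05, Adra2b, which was lower, where 1.73% of the genes tested had one, 0.995% lower and 0.738% higher. In the virus effect with stress 4 of 7 did, Adra1b, Adra1d and Adrb1 lower and Adra2b higher, where 16.1% of genes had one, 6.95% lower and 9.13% higher. In the stress effect with GFP 2 of 7 did, Adra2a and Adra2b, both lower, where 11.2% had one, 7.96% lower and 3.27% higher. In the stress effect with ZBTB7A no member did, where 1.66% of genes had one (0.58% lower and 1.08% higher). In the interaction 2 of 7 did, Adra2a and Adra2b with values above 0, where 7.42% had one, 5.64% above 0 and 1.78% below. No member passed an adjusted p of 0.05 in limma in any of the 5 contrasts, and 0% of the genes tested did. edgeR also called 0 genes in each, and DESeq2 called 0, 46, 39, 1 and 3 in the order above, with Adra2b in the stress effect with GFP as the only call of a member. At an unadjusted p under 0.05, limma called 284, 2635, 1839, 272 and 1216 genes, edgeR 308, 2663, 1960, 277 and 1286, and DESeq2 302, 2835, 2078, 288 and 1391.

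The median log2 fold change of the 7 members was -0.12, -0.08, 0.11, -0.09 and -0.21 in the same order, beside -0.01, 0.01, -0.01, 0.01 and 0.01 over all genes tested. These contrasts share groups: GFP stress enters both the virus effect with stress and the stress effect with GFP, with opposite signs, so a library group that is low in Adra2b lowers one and raises the other.

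**Figure D3:**
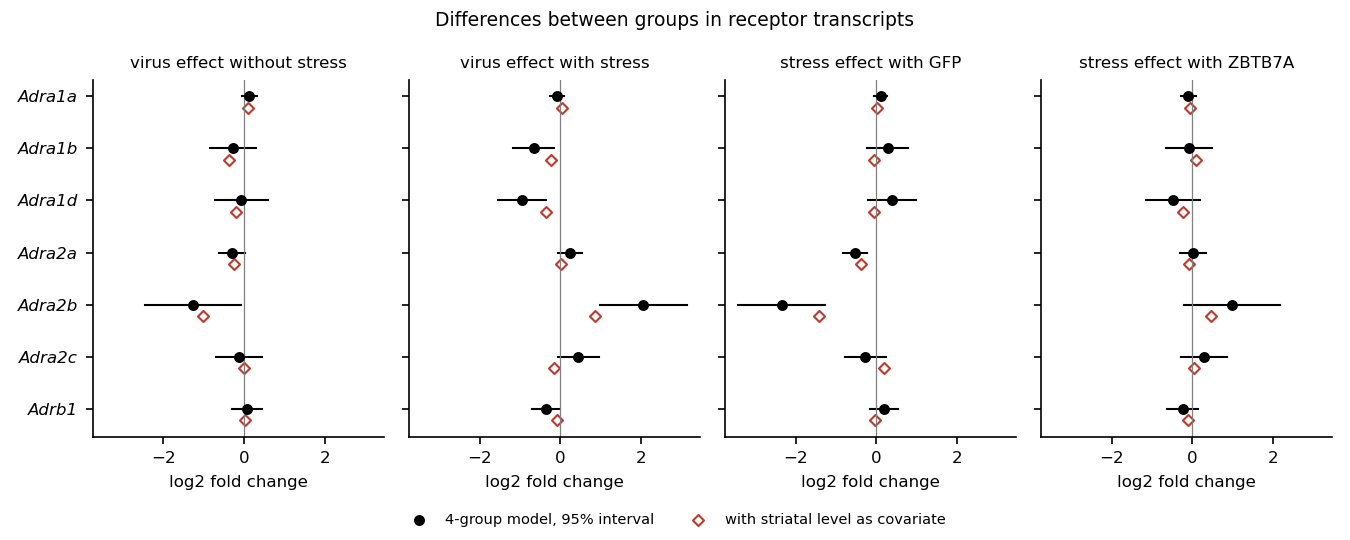
Log2 fold changes of the 7 receptor genes in the 4 simple contrasts, from the model of 4 group means with 95% intervals (black) and with the striatal marker level as a covariate (red diamonds). Adra2b lies at 2.06 in the virus effect with stress and at -2.35 in the stress effect with GFP, and moves to 0.86 and -1.43 with the covariate.

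Across the 23 libraries Adra1b, Adra1d and Adrb1 rose and fell together, and Adra2b ran against all 3 of them over all libraries, though not in every run. Adra1a rose with these 3 more weakly, at an r of 0.50, 0.53 and 0.46 (adjusted permutation p from 0.0244 to 0.0393). In run 3 these were 0.07, 0.25 and 0.21. On log2 values Adra1b and Adra1d had a Pearson's r of 0.89 (permutation p = 1e-05, the smallest that 100000 permutations can give; adjusted over 21 pairs 1.05e-04) and a Spearman's rho of 0.86 (p = 1e-05). It was 0.88 on values centred on their group, 0.86 without the 2 libraries farthest from the median of Adra1b, and 0.84, 0.90 and 0.90 within the 3 runs. Adra1d and Adrb1 had an r of 0.88 and a rho of 0.88 (both permutation p = 1e-05, adjusted 1.05e-04), with 0.86 centred on group, 0.87 without the 2 farthest libraries and 0.88, 0.83 and 0.85 within the runs. Adra1b, Adra1d and Adrb1 thus covaried within groups as well as over all libraries.

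Adra2a and Adra2b had an r of 0.73 (permutation p = 1.1e-04, adjusted 5.46e-04) and a rho of 0.68 (p = 5.7e-04). It was 0.58 centred on group, 0.62 without the 2 farthest libraries, and 0.84, 0.94 and 0.44 within the runs. Adra1d and Adra2b had an r of -0.73 (permutation p = 1e-04, adjusted 5.46e-04) and a rho of -0.71 (p = 1.4e-04). This one did not hold in every run, at -0.94, 0.03 and -0.87, and was -0.67 without the 2 farthest libraries and -0.57 without the 5 far in striatal level. With Adra1b, Adra2b had an r of -0.61 (permutation p = 0.00157, adjusted 0.00549; rho -0.59, p = 0.00334), at -0.86, 0.20 and -0.75 within the runs. With Adrb1 it had -0.62 (permutation p = 0.00202, adjusted 0.00606; rho -0.64, p = 0.00124), at -0.77, -0.16 and -0.70. Without the 5 far libraries Adra2b had an r of -0.42 with Adra1b and -0.40 with Adrb1. Adra2a had an r of -0.37, -0.40 and -0.36 with Adra1b, Adra1d and Adrb1 and of 0.36 with Adra2c, with adjusted permutation p-values from 0.0761 to 0.0999, and Adra2c had -0.21 with Adrb1 (permutation p = 0.346). Adra2c ran against Adra1b and Adra1d, at -0.52 and -0.46 (adjusted permutation p = 0.0244 and 0.0393). Without the 5 far libraries these were -0.22 and -0.16. Adra1a had an r of -0.48, -0.46 and -0.43 with Adra2b, Adra2a and Adra2c (adjusted permutation p = 0.0367, 0.0393 and 0.0560). Adra2b and Adra2c had an r of 0.52 (permutation p = 0.0119, adjusted 0.0251) and a rho of 0.50 (p = 0.0154), which was 0.22 without the 5 far libraries and thus rests on them.

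**Figure D4:**
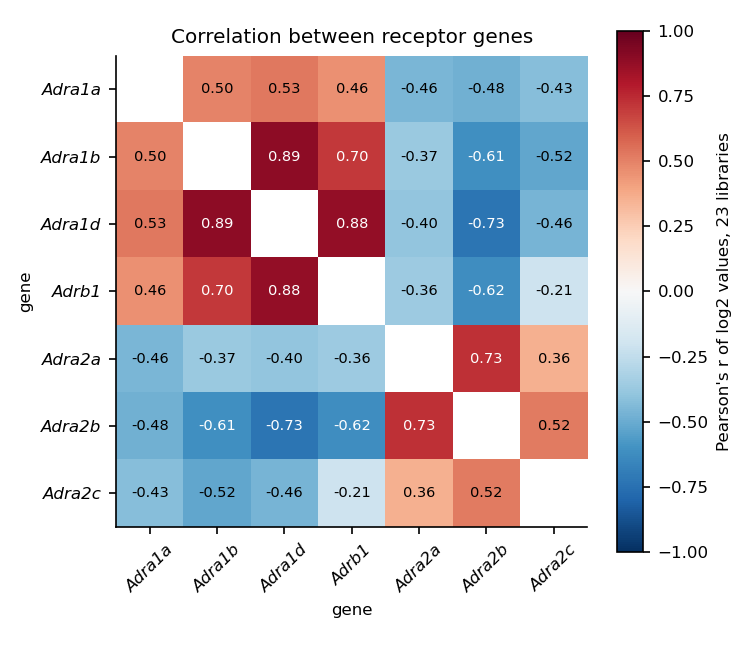
Pearson's r between the log2 normalized counts of the receptor genes over 23 libraries, coloured from -1 (blue) to 1 (red). Adra1b, Adra1d and Adrb1 form a red block with r from 0.70 to 0.89, and Adra2b is positive only with Adra2a (0.73) and Adra2c (0.52).

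Every member was related to both the cortical excitatory and the striatal marker level, with opposite signs. The members differed in the direction and size of these relations. The level of 8 cortical excitatory neuron markers, as a mean of centred log2 values, had an r of 0.92 with Adra1b (rho 0.89) and 0.90 with Adra1d (rho 0.92), each with a permutation p of 1e-05 (adjusted over 42 relations 1.05e-04). Within the runs it was 0.95, 0.68 and 0.91 for Adra1b and 0.90, 0.85 and 0.90 for Adra1d, and it was 0.85 and 0.93 without the 2 libraries farthest in that level. For Adrb1 it was 0.73 (permutation p = 3e-05, adjusted 2.52e-04; rho 0.82, p = 1e-05), with 0.69, 0.76 and 0.75 within the runs. For Adra1a it was 0.54 (adjusted permutation p = 0.0147). Adra2c and Adra2a ran against this level, at -0.59 and -0.46 (adjusted permutation p = 0.0056 and 0.0488). Without the 5 libraries far in striatal level these were -0.26 and -0.13. Adra2b also ran against the cortical level, at -0.72 (permutation p = 8e-05, adjusted 4.8e-04; rho -0.78, p = 2e-05). Group means of the cortical level (± SD) were -0.07 ± 0.31 for GFP control, 0.27 ± 0.18 for GFP stress, -0.14 ± 0.64 for ZBTB7A control and -0.22 ± 0.27 for ZBTB7A stress. This level was thus lower in ZBTB7A stress than in GFP stress, as Adra1b, Adra1d and Adrb1 were. Its part in those differences was not tested.

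The striatal marker level had an r of 0.77 with Adra2c (rho 0.86, both permutation p = 1e-05, adjusted 1.05e-04), and of 0.84 over the 18 libraries left without the 5 far ones, with 0.79, 0.73 and 0.81 within the runs. With Adra2b it was 0.81 (permutation p = 1e-05; rho 0.76, p = 7e-05), 0.73 without the 2 farthest libraries and 0.49 without the 5. With Adra2a it was 0.58 (permutation p = 0.00337; rho 0.40, p = 0.0567) and 0.19 without the 5, so that relation rests on those libraries. Adra1d ran against the striatal level at -0.74 (permutation p = 8e-05; rho -0.75, p = 6e-05), and at -0.56 without the 5. Adra1b, Adrb1 and Adra1a did too, at -0.64, -0.62 and -0.54 (adjusted permutation p = 0.0042, 0.0047 and 0.0182). Without the 5 these were -0.53, -0.33 and -0.54. The group means of this level (± SD) were 0.53 ± 0.63 for GFP control, -1.05 ± 1.60 for GFP stress, 0.12 ± 1.22 for ZBTB7A control and 1.02 ± 0.61 for ZBTB7A stress. GFP stress was thus lowest in this level as it was in Adra2b, and the part of tissue content in the group differences was not tested beyond the covariate values given above.

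Markers of the choroid plexus and ependyma, the secretory and lining cells of the ventricle, were also set against the receptors. This relation and the next were chosen after the data were seen. The level of these 7 markers had an r of 0.71 with Adra2b (permutation p = 1.5e-04, adjusted 7e-04; rho 0.74, p = 9e-05), with 0.76, 0.89 and 0.28 within the runs, and of 0.62 with Adra2a (permutation p = 0.00176, adjusted 0.00528; rho 0.64, p = 0.00141), which was 0.29 on values centred on group. Without the 5 libraries far in striatal level the r was 0.62 with Adra2b and 0.43 with Adra2a. Over all libraries the level of these markers had an r of 0.24 with Adra2c (permutation p = 0.282, adjusted 0.301; rho 0.33, p = 0.131). Their summed normalized count was 927 to 9206 across GFP control libraries, 181 to 903 across GFP stress, 442 to 2012 across ZBTB7A control and 439 to 1125 across ZBTB7A stress, and the marker Otx2 was at 0 in 2 libraries. GFP control was thus above GFP stress without overlap in this sum as it was in Adra2b. The oligodendrocyte marker level had an r of 0.73 with Adra2b (permutation p = 1e-04, adjusted 5.25e-04; rho 0.73, p = 9e-05), and of 0.51 without the 5 far libraries. That level had an r of 0.61 with Adra2a, -0.66 with Adra1d and -0.63 with Adrb1 (adjusted permutation p from 0.0033 to 0.0056). Its r was -0.49 with Adra1b, -0.45 with Adra1a and 0.40 with Adra2c (adjusted permutation p from 0.0357 to 0.0848). Astrocyte markers, of the cells in which the Gfap promoter is active, had an r between -0.48 and 0.42 with the 7 members.

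**Figure D5:**
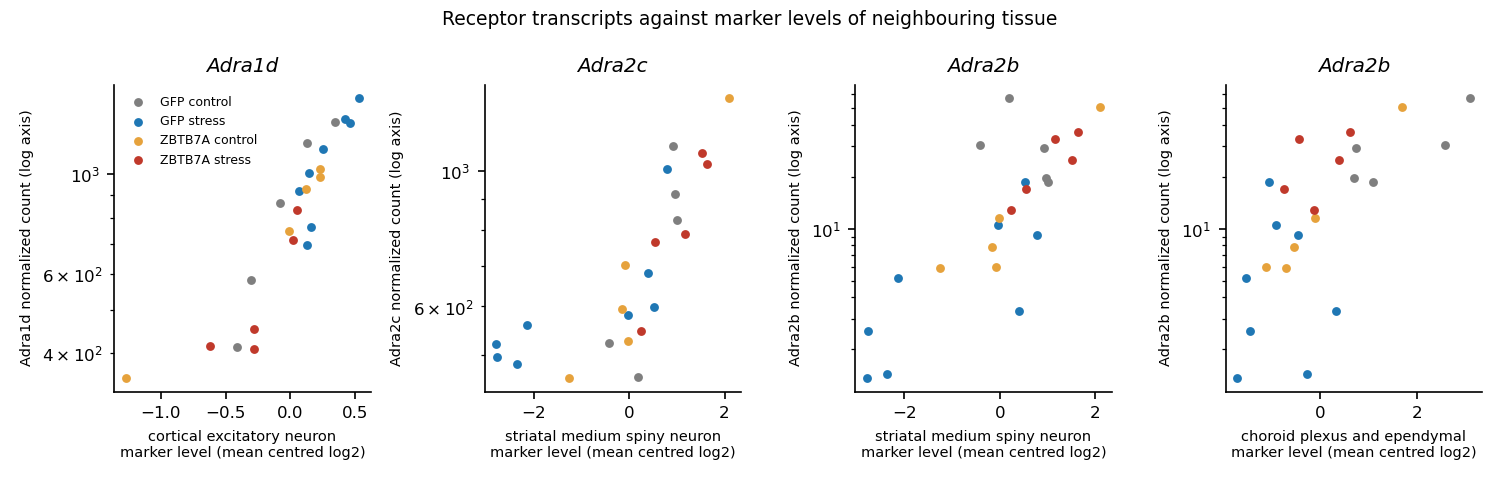
Normalized counts (log axis) of Adra1d, Adra2c and Adra2b against marker levels (mean centred log2) of cortical excitatory neurons, striatal medium spiny neurons and the choroid plexus; each point is 1 library coloured by group. Adra1d rises with the cortical level (r = 0.90), and Adra2c and Adra2b rise with the striatal level (0.77 and 0.81), where 4 GFP stress libraries sit at the far left.

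Genes that make, store, take up and break down noradrenaline were 10 in the list, of which 8 were tested and 0 passed the adjusted threshold in any contrast. Ddc, which makes dopamine and serotonin from their precursors, had a GFP control mean of 194 ± 54.5 (SD, n = 5), a GFP stress mean of 128 ± 35.5 (n = 8), a ZBTB7A control mean of 138 ± 30.0 (n = 5) and a ZBTB7A stress mean of 202 ± 43.0 (n = 5) normalized counts. Its contrasts were -0.60 ± 0.21 for stress with GFP, 0.68 ± 0.21 for the virus effect with stress, 0.54 ± 0.23 for stress with ZBTB7A and 1.14 ± 0.31 for the interaction (limma adjusted p from 0.183 to 1.00). Slc18a2, the vesicular monoamine transporter, was at -0.51 ± 0.23 for stress with GFP, and Slc22a3, a transporter that clears monoamines outside neurons, at 0.65 ± 0.31 for the virus effect with stress, both with an unadjusted p under 0.05. Over the list 2 of 8 had such a p in the stress effect with GFP, both lower, beside 11.2% of all genes (7.96% lower). In the virus effect with stress 2 of 8 did, both higher, beside 16.1% (9.13% higher), and the list medians were -0.11 and 0.12.

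Transcripts that define noradrenergic neurons had few reads in all libraries, apart from Th. Dbh, the enzyme that makes noradrenaline from dopamine, had between 1.26 and 13.5 normalized counts in any library. Slc6a2, the noradrenaline transporter, reached at most 3.06 and was at 0 in 8 libraries. Th, the rate-limiting enzyme of catecholamine synthesis, which other neurons also express, ranged from 88.8 to 1212.

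Downstream of the receptors no gene passed the adjusted threshold either, over 9 genes of the Gq arm, 10 of the Gi arm, 17 of the Gs and cyclic AMP arm and 13 of receptor desensitisation and RGS proteins. In the Gq arm the virus effect with stress was -0.42 ± 0.16 for the phospholipase Plcb4 and 0.29 ± 0.12 for Plcb3, and 8 of 9 genes were below 0, with a median of -0.07. In the Gi arm it was -0.43 ± 0.18 for Kcnj9 and -0.42 ± 0.20 for Kcnj3, both subunits of GIRK channels, and the median was -0.14. These 4 were named for an unadjusted p under 0.05, which 16.1% of all genes had in this contrast. In the Gq arm 1 of 9 genes was higher and 1 of 9 lower at that level. The Gi arm had 0 of 10 higher and 2 of 10 lower, beside 9.13% higher and 6.95% lower over all genes. The median of all genes was 0.01.

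In the Gs arm 4 of 17 genes were higher and 3 of 17 lower at an unadjusted p under 0.05 in the virus effect with stress, beside 9.13% and 6.95% of all genes. The 3 with the smallest p were the phosphodiesterase Pde4b at 0.21 ± 0.05, Gnal at 0.70 ± 0.19 and Gnas at -0.25 ± 0.07. Gnal encodes the stimulatory G protein subunit of striatal neurons and Gnas the one used more widely, and their differences had opposite signs. In the interaction Gnal was at 0.78 ± 0.28, Pde4b at 0.21 ± 0.08 and Adcy5, the main adenylyl cyclase of the striatum, at 1.25 ± 0.51. There 4 of 17 genes of the arm were above 0 at an unadjusted p under 0.05, beside 5.64% of all genes, and 0 of 17 below, beside 1.78%. The regulatory kinase subunit gene Prkar1b was at 0.28 ± 0.13 in the stress effect with GFP. It was the only 1 of 17 genes of the arm with an unadjusted p under 0.05 there, beside 11.2% of all genes (3.27% higher).

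Among genes of receptor desensitisation, the virus effect with stress was -0.22 ± 0.08 for Gipc1, which encodes an adaptor that binds receptor tails, 0.48 ± 0.19 for Rgs2 and -0.34 ± 0.16 for Rgs4. Rgs2 and Rgs4 shorten G protein signals, and Rgs2 was higher while Rgs4 was lower. In the stress effect with GFP, Gipc1 was at 0.22 ± 0.08 and the receptor kinase Grk5 at -0.27 ± 0.12, and in the interaction the arrestin Arrb2 was at -0.23 ± 0.10. These genes were named for an unadjusted p under 0.05. Of 13 genes, 1 was higher and 2 were lower at that level in the virus effect with stress, beside 9.13% and 6.95% of all genes. The stress effect with GFP had 1 higher and 1 lower (3.27% and 7.96% of all genes). The interaction had 0 above 0 and 1 below (5.64% and 1.78%). The list medians lay between -0.05 and 0.09 in the 5 contrasts.

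The genes most like each member across libraries were found by Pearson's r over 23 libraries on log2 values centred on their group, among 13338 genes with a mean of 50 or more (13339 for Adra2b), and the r values are descriptions with no test. For Adra1b they were Sel1l3 (0.95), Il17ra (0.94) and Fxyd7 (0.94), and for Adra1d Pitpnm3, Ephb3 and Clec16a (each 0.94). For Adrb1 they were Nrgn (0.91), a calmodulin-binding protein of excitatory neurons and itself one of the cortical markers above, Ephb3 (0.90) and 1810055G02Rik (0.90), so Ephb3 was on the lists of both Adra1d and Adrb1. For Adra2c they were Krt10, Tesc and Cpne5 (each 0.95), and for Adra2b Dlk1 (0.89), Ripor2 (0.87) and Magel2 (0.86). Adra2a had no partner this close, with Fstl1 (0.76), Samd14 (0.75) and Ddah1 (0.75), nor did Adra1a, with Arfgef3 (0.81) and Hecw2 (0.81).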

How the data were processed

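Per the labels, RNA came from a Trizol and RNeasy Micro extraction, and the TruSeq RNA v2 kit used for libraries of polyadenylated RNA does not mark strand. The tools DESeq2 2.11.40.6, HISAT2 2.1.0 and featureCounts 2.0.1 and the builds mm9 and mm10, with no role for either build, are given per the submitters' processing notes. The deposited values are normalized counts, a signal that the authors scaled by 1 factor for each library, with no correction for gene length. Values divided by their library's step came out whole within 0.02 reads for 100% of genes, so reads were recovered for the count tests. The table held 27606 entries, of which 428 repeats were removed. Normalized totals were 21.5 to 25.2 M per library, and depth limits Adra2b in particular, where counting error is large.

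Values were taken as log2(normalized count + 1), and genes at 10 or more in at least 5 libraries were fitted with limma 3.58.1 (R 4.3.3, trended and robust empirical Bayes, 4 group means, 5 contrasts, two-sided, Benjamini-Hochberg adjusted p under 0.05 over 16385 genes). Single members were also compared by exact two-sided permutation of 2 groups, and correlations by 100000 permutations. A marker or list level is the mean of its genes' centred log2 values. The runs of library numbers are the 3 passes of the title numbers through the 4 groups, and the labels do not call them batches. Named beside the members were Zbtb7a, Gfap, of each pathway list up to 3 genes by smallest unadjusted p under 0.05 in a contrast, genes of the noradrenergic marker list, and for each member the 3 genes with the highest r centred on group; some genes that this takes are not reported here. The members and lists were chosen with earlier results of these data known. Alternatives were DESeq2 1.42.0 and edgeR 4.0.16 on recovered reads, TMM scaling, a pseudocount of 5, a mean of at least 50 or no filter, number run or striatal level as a covariate, array weights, only the groups compared, leaving out the 5 libraries far in striatal level, and leaving out each library. The choroid plexus covariate and the relations to choroid plexus and oligodendrocyte levels were added after the data were seen. The fit was also run on simulated counts. These hold no differences in tissue content between libraries, so that run cannot show how the fit performs on these data. Promoters came from RefSeq (GRCm38.p6) and exon lengths from GENCODE M21.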

Additional observations from a re-analysis of the deposited data

Results flagged for a closer look

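GFP stress 13 had an Adra2c normalized count of 1009, far above the other 7 libraries of its group, whose highest was 681. On log2 values this was the only one of 28 combinations of a member and a group whose gap over range (0.534) passed the 95% limit for its group size, and chance alone flags about 1 in 20 groups. In the groups of 5 that limit is 0.71, and ZBTB7A control 6 came to 0.706 in Adra2b, 0.704 in Adra1d and 0.595 in Adra2c. On normalized counts, a scale added after the data were seen, ZBTB7A control 6 passed it in Adra2b (0.875) and Adra2c (0.715). GFP stress 13 was at 0.79 in striatal level, the highest of its group.

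The effect of stress differed between the viruses for Adra2b, by 3.33 on the log2 scale in a test of the difference itself (limma interaction, unadjusted p = 2.81e-04, adjusted p = 0.668), and for Adra2a, by 0.55 (unadjusted p = 0.0177, adjusted p = 0.668). Neither passed the adjusted threshold. The 2 genes had an r of 0.73 with each other over the 23 libraries and share the GFP stress group, so they are not independent results. With the striatal level as a covariate the values were 1.88 and 0.28.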

How the results depend on the processing

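No paired analysis was possible because the groups share no replicate numbers in the labels, so no replicate block could be fitted. The number of genes past the adjusted threshold, 0 in every contrast, was 46 in the virus effect with stress, 39 in the stress effect with GFP, 1 in the stress effect with ZBTB7A and 3 in the interaction under DESeq2. Array weights gave 2287, 668 and 2068 genes in the virus effect with stress, the stress effect with GFP and the interaction, and only the groups compared gave 2 in the virus effect with stress. With each library left out these counts ranged from 0 to 3 in the virus effect with stress (3 without GFP stress 13) and from 0 to 82 in the interaction (82 without ZBTB7A control 6, 2 without GFP stress 13, 1 without GFP stress 22 and 1 without ZBTB7A stress 17), and stayed at 0 in the other 3 contrasts. With array weights Adra1b, Adra1d, Adra2b and Adra2c passed in the virus effect with stress (adjusted p from 0.00739 to 0.0468), Adra2a and Adra2b in the stress effect with GFP (0.0462 and 0.0300) and every member but Adrb1 in the interaction (0.0102 to 0.0477). The cause was not tested.

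Signs turned as follows. With the striatal level as a covariate: the virus effect with stress was 0.040 for Adra1a and -0.15 for Adra2c; the stress effect with GFP was -0.048 for Adra1b, -0.063 for Adra1d, 0.18 for Adra2c and -0.031 for Adrb1. That covariate gave a stress effect with ZBTB7A of 0.098 for Adra1b and -0.086 for Adra2a, and an interaction of 0.15 for Adra1b and -0.15 for Adra2c. With the choroid plexus level, the virus effect without stress was 0.0012 for Adra2c and -0.27 for Adrb1. The stress effect with GFP was then -0.047 for Adra1a, -0.41 for Adra1b, -0.53 for Adra1d and -0.30 for Adrb1, and the interaction 0.34 for Adra1b, 0.078 for Adra1d and 0.072 for Adrb1. With array weights the virus effect without stress was 0.22 for Adra1b and 0.31 for Adra1d. Without the 5 libraries far in striatal level it was 0.0096 and 0.21, and the stress effect with GFP was -0.044 for Adrb1. The stress effect with ZBTB7A was 0.055 for Adra1b with number run as a covariate and -0.00084 for Adra2a in DESeq2.

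With each library left out, the virus effect without stress ranged from -0.44 to 0.0096 for Adra1b, from -0.30 to 0.21 for Adra1d, from -0.36 to 0.029 for Adra2c and from -0.061 to 0.19 for Adrb1. The stress effect with ZBTB7A ranged from -0.38 to 0.054 for Adra1b and from -0.061 to 0.089 for Adra2a. None of these effects had an unadjusted p under 0.05 in the 4-group model, and the cause was not tested. The differences of Adra1b, Adra1d, Adrb1, Adra2a and Adra2b that had one kept their direction under each alternative run, which gave Adra2b no value where a mean of 50 or more was required.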
